A study of Mus musculus with 10 samples.

Results

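The 5 control (ctrl) arrays of the series, out of 10 arrays in all, were used to describe resting gene expression in the gastrocnemius muscle (GTN) of the young adult mouse. Members were chosen by label alone: the arrays whose genotype label was control. The ctrl mice were males at postnatal day 60 on standard chow, each with 2 floxed Txnrd2 alleles (Txnrd2 fl/fl) and without the Cre transgene (ACTA1-Cre +/+), so Txnrd2, the gene of mitochondrial thioredoxin reductase, was intact in them. The floxed allele that the knockout mice carry was therefore present here too, and no array of Cre-negative mice without it was included. Total RNA of whole muscle was hybridised to Affymetrix Clariom S mouse arrays, which measure constitutive exons of each gene, with 1 mouse per array. Values are log2 signals as mean ± SD over the 5 arrays (n = 5), and replicates 1 to 5 are the mice as numbered in the labels.

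The gastrocnemius is the large ankle extensor of the calf. In mice it is built mostly of fast fibres, which contract with the fast myosin heavy chains (Myh1, Myh2 and Myh4) and draw on glycogen and glycolysis. Slow fibres, which use the myosin heavy chain Myh7 and lean on mitochondria and fatty acids, are few and lie mainly in its deep part. Whole muscle also holds blood vessels, connective tissue, fat, nerve and resident immune cells. In such a sample fewer cells of a type and less RNA per cell cannot be told apart.

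The 5 arrays were alike as a whole. Their medians lay between 6.07 and 6.14, single values ran between 2.41 and 19.91, and the pairwise correlation over all 22206 probe sets ranged from 0.9886 to 0.9896, a correlation across probe sets within pairs of arrays and not across mice. A symbol was given to 19572 probe sets, which stand for 19505 genes when the brightest probe set of each gene is taken, while 2634 probe sets are unnamed here. As a background level, the 95th percentile of the mean signals of 1080 olfactory receptor probe sets was used, since these receptors belong to the nose. It lay at 5.49, and 11480 of 19505 named genes (58.9%) had a mean above it. Probe sets bind with different strength, so the order of genes on this scale is an order of signals and not of transcript amounts.

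The markers of fast skeletal muscle stood at the top of the scale in every mouse. Acta1, skeletal muscle actin, read 19.87, 19.90, 19.83, 19.82 and 19.84 in replicates 1 to 5. Myh4, the heavy chain of the fastest fibres, read 19.70, 19.73, 19.65, 19.72 and 19.66. Both were nearly flat across mice. Pvalb, the calcium buffer parvalbumin of fast fibres, had 18.53 ± 0.0239 and Ckm, muscle creatine kinase, 18.01 ± 0.0432, which placed them at rank 26 and rank 41 of all named genes. The label of the tissue was borne out by these 4 markers. Txnrd2 itself had 8.82, 9.08, 8.67, 8.47 and 8.65, a mean of 8.74 ± 0.228 that exceeded 72.1% of named genes.

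The brightest genes were those of the contractile apparatus and of energy supply. Of the 10 brightest, 7 belonged to the fibre lists and 3 to the energy lists, and of the 100 brightest, 26 and 36 did. These lists hold 90 and 194 of the 19505 named genes. They were chosen with earlier results of these data known, so the counts describe the top of the scale and test nothing. The order opened with Myl1 (fast myosin light chain, 19.86), Acta1 and Myh8, followed by Tpm1 (tropomyosin, 19.69), Myh4, Atp2a1 (the calcium pump of fast fibres, 19.65), Aldoa (aldolase, 19.61), Mb (myoglobin, 19.60), Pygm (glycogen phosphorylase, 19.59) and Tnnt3 (fast troponin T, 19.32). Myh8 is the perinatal myosin heavy chain, and its 19.83 ± 0.0288 sits beside the adult chains whose genes neighbour it and resemble it; whether its probes also take up their RNA was not tested. The gene at rank 100, Hspb7, a small heat shock protein of muscle, still had a mean of 16.86. A total of 30 of the 100 were in no list, among them Tpm2 (tropomyosin, 18.98), Fth1 (ferritin heavy chain, 18.95), Fhl1 (a LIM protein of muscle, 18.94), Ankrd23 (a titin-binding ankyrin repeat protein, 18.61) and Ccng1 (cyclin G1, 18.53).

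**Figure D1:**
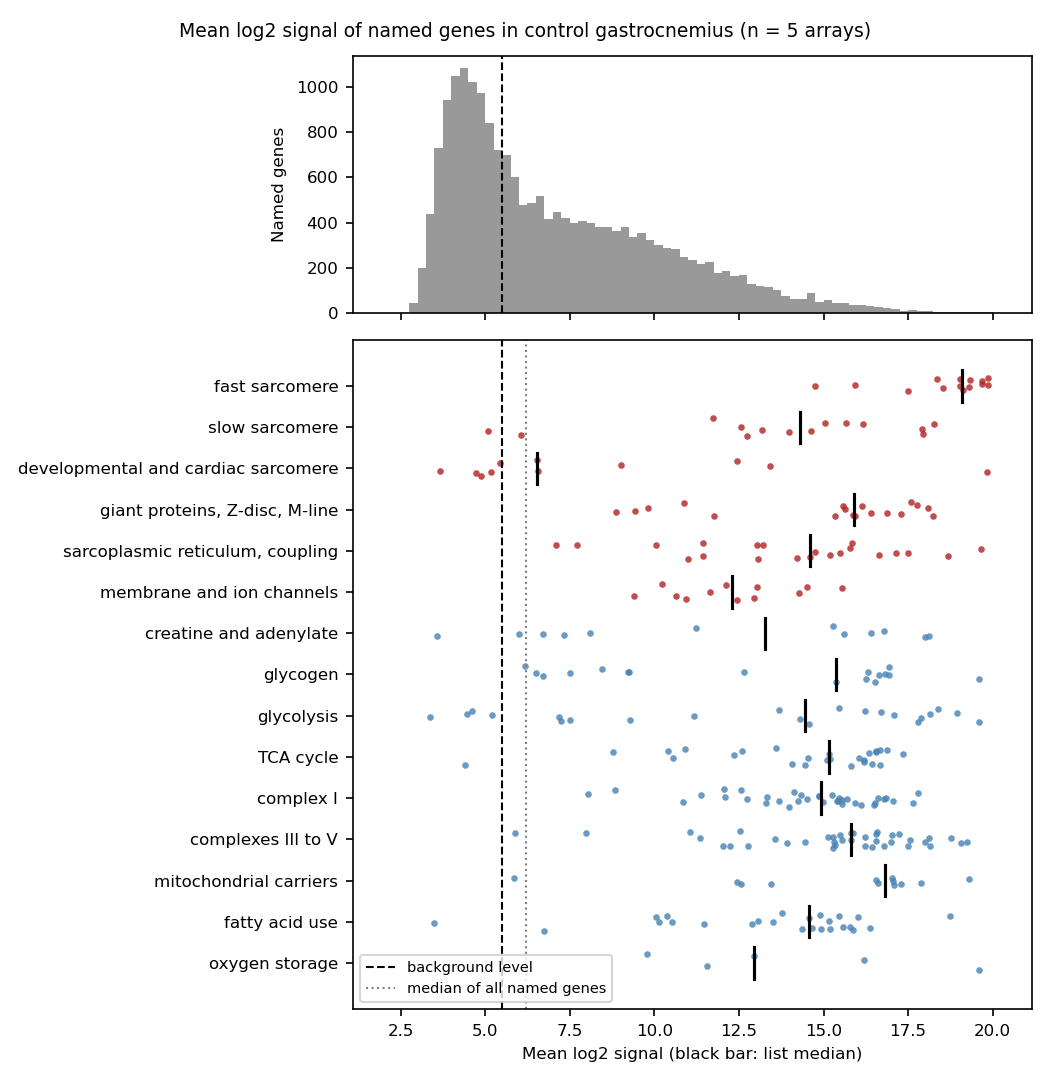
Top, number of named genes by mean log2 signal over the 5 control arrays; bottom, 1 point per measured member of 6 fibre lists (red) and 9 energy lists (blue), with the list median as a black bar. The dashed line is the background level of 5.49 and the dotted line the median of all named genes at 6.20, and 14 of the 15 list medians lie at 12.28 or above, the developmental and cardiac list being the exception at 6.54.

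The promoters of 2 of the brightest genes are printed because the TATA box is a known feature of strongly used, tissue-restricted genes. RefSeq promoters of GRCm38.p6, each 300 bases from 250 before to 50 after the annotated start, were searched for TATAAA on both strands. The match was found in 13.6% of all 32851 promoters, in 14.6% of the 15691 named genes with a promoter in the table, in 20 of 76 (26.3%) of the 100 brightest genes that matched by symbol and in 5 of 10 genes of the fast sarcomere list. The shares describe letters in a window and say nothing on use of the site. Capitals mark TATAAA or, on the other strand, its reverse complement. The Acta1 promoter lies at chr8:123894726-123895025 on the minus strand and the Myh4 promoter at chr11:67237562-67237861 on the plus strand, both printed 5′ to 3′ along the gene.
Acta1: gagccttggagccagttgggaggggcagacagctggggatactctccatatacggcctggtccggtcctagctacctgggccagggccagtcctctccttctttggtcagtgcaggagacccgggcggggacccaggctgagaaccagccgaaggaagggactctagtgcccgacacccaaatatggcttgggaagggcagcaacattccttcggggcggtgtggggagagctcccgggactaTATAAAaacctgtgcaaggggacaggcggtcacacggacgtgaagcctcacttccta
Myh4: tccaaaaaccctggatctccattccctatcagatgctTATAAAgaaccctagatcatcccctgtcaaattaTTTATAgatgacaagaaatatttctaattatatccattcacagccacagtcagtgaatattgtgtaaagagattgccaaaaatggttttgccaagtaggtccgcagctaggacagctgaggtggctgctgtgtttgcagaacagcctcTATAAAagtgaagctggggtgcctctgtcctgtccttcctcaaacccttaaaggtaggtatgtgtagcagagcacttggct

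Genes of the fast sarcomere gave the brightest list. All 14 members lay above the background level, 12 were among the 100 brightest, and the list median was 19.08, beside 6.20 over all named genes. Apart from those above, Mylpf (fast regulatory light chain) had 19.05, Tnni2 and Tnnc2 (fast troponin I and C) 19.11 and 18.35, and Actn3 (alpha-actinin of fast fibres) 19.02. Of the adult heavy chains, Myh1, that of type 2X fibres, had 17.50 ± 0.0573, beside an SD of 0.0356 for Myh4. Myh2, that of the more oxidative type 2A fibres, read 18.94, 19.28, 19.42, 19.54 and 19.39 (19.31 ± 0.229), lowest in replicate 1. Mybpc2, fast myosin-binding protein C, ran the other way, with 16.49, 16.03, 15.58, 15.82 and 15.68, highest in replicate 1.

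The slow programme was present at lower signal. Of 14 slow sarcomere genes, 13 lay above the background level, with a list median of 14.30 and 3 among the 100 brightest. Those 3 were Mybpc1 (slow myosin-binding protein C, 18.26), Actn2 (17.95) and Myoz2 (calsarcin, a Z-disc protein, 17.90). Myh7, the slow heavy chain, had 14.33, 14.71, 14.67, 14.47 and 14.92 (14.62 ± 0.228). The slow light chains Myl2 and Myl3 had 15.65 ± 0.166 and 13.17 ± 0.26, and the slow troponins Tnnt1, Tnnc1 and Tnni1 had 15.06 ± 0.282, 12.73 ± 0.292 and 11.73 ± 0.417. Only Myl6b (5.08) stayed at the background level, and Myh7b (6.05) was just over it.

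Embryonic and cardiac sarcomere genes divided. Of 11 members, 6 lay above the background level and the list median was 6.54. Besides Myh8, these were Actc1, cardiac actin, at 13.42 ± 0.839, Myl4, the atrial and embryonic light chain, at 12.44 ± 0.25, Ncam1, a cell adhesion molecule of immature and denervated fibres, at 9.01 ± 0.672, and, close to background, Myh3 (embryonic heavy chain, 6.54) and Tnnt2 (cardiac troponin T, 6.57). At or below the background level were the heart genes Myh6 (5.44), Tnni3 (4.87) and Mybpc3 (3.67) and the myoblast fusion genes Mymk (4.73) and Mymx (5.17).

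Scaffold, calcium and membrane genes were all above the background level. The 18 measured genes of giant proteins, Z-disc and M-line had a median of 15.91, led by Neb (nebulin, 18.24), Myot (myotilin, 18.10) and Ttn (titin, 17.76), and the dimmest was Mybph (8.87 ± 0.673). The 21 genes of the sarcoplasmic reticulum and of excitation-contraction coupling had a median of 14.59, with Casq1 (calsequestrin of fast fibres) at 18.67, Trdn (triadin) at 17.50, Ryr1 (the calcium release channel) at 16.64 and Cacna1s (its voltage sensor) at 15.21. Atp2a2, the calcium pump of slow fibres, had 15.50 ± 0.325. The pump inhibitors were dim: Sln (sarcolipin) read 6.65, 7.68, 7.33, 8.08 and 8.79 and Pln (phospholamban) 7.17, 7.14, 7.09, 7.09 and 7.02. The SD was 0.802 for Sln, whose spread did not pass the test described further on (adjusted p = 0.557), and 0.0572 for Pln. The 12 membrane genes, such as the chloride channel Clcn1 (14.51) and the sarcoglycan Sgca (13.03), had a median of 12.28.

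The anaerobic energy programme was bright in the isoforms that define muscle, and many of the forms of other tissues were dim. Not all of these were: Ldhb (lactate dehydrogenase B) had 14.32 and Ampd3 (an AMP deaminase) 11.24. In the glycogen list all 17 members were above the background level (median 15.37). The muscle phosphorylase Pygm had 19.59, the liver form Pygl 7.51 and the brain form Pygb 6.18, each by its own probe set. Gys1, muscle glycogen synthase, had 15.37 and the liver form Gys2 6.49. In glycolysis 18 of 22 members were above it (median 14.45), and 7 were among the 100 brightest: Aldoa, Gapdh (18.94), Pkm (pyruvate kinase, 18.39), Ldha (lactate dehydrogenase A, 18.16), Eno3 (muscle enolase, 17.89), Pfkm (muscle phosphofructokinase, 17.79) and Tpi1 (17.07). The 4 at or below it were isoforms known from brain, liver or kidney: Aldoc (4.62), Eno2 (3.35), Pklr (5.21) and Fbp1 (4.47). In the creatine and adenylate list, 11 of 12 members were above it, with Ak1 (adenylate kinase) at 18.11 and Ckmt2 (sarcomeric mitochondrial creatine kinase) at 16.78, while Ckmt1, the form of other tissues, had 3.58.

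Mitochondrial genes followed. All 36 measured genes listed under complex I (median 14.93) and all 39 of complexes III to V with cytochrome c (median 15.82) were above the background level, and 3 and 11 of them were among the 100 brightest. The brightest were Uqcrb (complex III, 19.24), Cox7c (complex IV, 19.06), Atp5b (ATP synthase, 18.77), Cycs (cytochrome c, 18.16) and Atp5a1 (18.12). Of those listed under complex I, Ndufa4 had 17.79 and Ndufb9 17.65. The muscle forms Cox6a2, Cox7a1 and Cox8b had 17.03, 15.87 and 15.35, and the lung form Cox4i2 had 5.89. In the tricarboxylic acid (TCA) cycle list 25 of 26 members were above it (median 15.17), with Idh3a (17.35) and Sdhb (16.88) the brightest. The kinases that switch off pyruvate dehydrogenase were Pdk2 at 16.19, Pdk4 at 16.06, Pdk1 at 12.59 and Pdk3 at 4.39. Of 12 carriers, Slc25a4, the ADP/ATP carrier of muscle, had 19.29 ± 0.0327 and Mpc1, of the pyruvate carrier, 17.89.

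Genes of fatty acid use were bright too, except for brown fat and liver forms. Of 25 members 24 were above the background level (median 14.58), led by Fabp3, the fatty acid-binding protein of muscle, at 18.75 ± 0.17, Hadha at 16.37 and Hadhb at 16.03, both of the trifunctional enzyme. Cpt1b, the muscle gatekeeper of fatty acid entry, had 14.67 ± 0.17, and the liver form Cpt1a 6.75. Ucp1, the uncoupler of brown fat, was at 3.48. Myoglobin, the oxygen store, read 19.61, 19.64, 19.60, 19.58 and 19.58.

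Regulators lay lower on the scale. Among 20 metabolic regulators, all above the background level (median 9.80), Prkaa2, the catalytic AMP kinase subunit of muscle, had 16.16 and Ppargc1a, a coactivator of mitochondrial genes, 13.38. Of the muscle transcription factors, Myf6 (MRF4) had 12.82 ± 0.16, while the factors of myoblasts and new fibres were close to background: Myod1 5.92, Myf5 5.84 and Myog 5.79. Mef2c (16.71) and Nfix (17.34) were the brightest of the 18 of 19 above the level. The atrophy ligases Fbxo32 and Trim63 had 14.39 ± 0.13 and 14.61 ± 0.14, and Mstn, the growth inhibitor myostatin, lay between 12.58 and 13.64. Of 13 myokine genes 8 (61.5%) were above background, near the 58.9% of all named genes, with Ostn (osteocrin) at 11.39 and Fndc5 at 13.06. Fgf21 (3.97), Il6 (4.28), Erfe (5.20), Lif (5.32) and Bdnf (5.40) were below it.

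All 25 antioxidant genes were above the background level (median 13.43). Selenow, selenoprotein W, was the brightest at 17.44, followed by Sod2, the mitochondrial superoxide dismutase, at 16.01, Prdx1 at 15.69 and Cat (catalase) at 15.52. The partners of Txnrd2 in mitochondria, Txn2 (thioredoxin 2) and Prdx3 (peroxiredoxin 3), had 13.55 ± 0.11 and 13.88 ± 0.21, and the cytosolic reductase Txnrd1 had 13.05 ± 0.18. Mthfd2, a one-carbon enzyme of mitochondria counted here with the antioxidant genes, had 7.47 ± 0.31. Ribosomal genes (31 of 31 above the level, median 14.72) and heat shock and endoplasmic reticulum genes (16 of 16, median 12.35) were bright, and cell cycle genes (8 of 17, median 5.38) were not. In between came the ATF4 targets (11 of 14, median 6.69), interferon targets (11 of 15, median 6.94) and genes known to respond to denervation (13 of 15, median 8.03).

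Markers of the other cells of the muscle were measured too. All 15 endothelial genes were above the background level (median 11.10), including Cdh5 (13.52) and Kdr (12.33), as were all 12 of pericytes and smooth muscle (median 9.84; Rgs5, 15.29) and all 11 of fibroblasts (median 11.93; Dcn, 17.54; Col3a1, 12.78). Tendon genes (9 of 11, median 7.78) included Fmod (fibromodulin) at 14.59 and Tnmd (tenomodulin) at 11.09. Macrophage genes (14 of 15, median 6.84) were led by Lyz2 at 11.16. Nerve genes (6 of 10, median 5.86) lay above it about as often as all named genes: Pmp22, which many cell types express, had 13.76 and Mbp (myelin basic protein) 9.93, but Sox10, the transcription factor that defines glia, was below it at 4.87. Of the satellite cell genes 9 of 12 were above it (median 6.76), but Pax7, which defines these cells, was at 4.67 ± 0.09. Lymphocyte (3 of 10), granulocyte (2 of 10) and keratinocyte genes (0 of 9) were mostly at the level of background. Of the 5 Y-linked genes measured, Eif2s3y (11.62), Uty (9.95) and Kdm5d (7.81) were above it in these males, and Sry (4.93) and Usp9y (3.31), known from the testis, were below.

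Genes of other tissues filled the low end of the scale. Above the background level were 5 of 14 neuronal, 3 of 13 liver, 2 of 12 pancreas and gut, 4 of 14 testis, 4 of 14 heart and 2 of 11 lung and kidney genes, with list medians between 4.26 and 5.27. Nppa, the atrial natriuretic peptide, had 4.03 ± 0.14, Ttr (transthyretin) 4.76, Syn1 (synapsin) 4.29 and Tnp1 (a sperm protein) 3.54. Among the exceptions, Aqp4, a water channel shared by astrocytes and fast fibres, had 12.46 ± 0.408, Gja1 (connexin 43) 9.25, Sycp3 (a meiotic protein) 8.90 and Nphs1 (nephrin) 8.15. Cyp2e1, a cytochrome P450 of liver and fat, averaged 7.83 with a spread described further on. The lowest mean of all named genes was that of Foxe3, a lens transcription factor, at 2.49, named after its value was seen.

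The spread between mice depended on the signal. The median SD over named genes was 0.274, and it was 0.32 between signals of 4 and 5.49, 0.277 between 7 and 9, 0.207 between 11 and 13, 0.144 between 17 and 18 and 0.0383 for the 17 genes above 19. Whether the brightest signals were compressed at the top of the scale was not tested. To find genes that differed between mice more than their signal foretells, each variance was set against the variance of the trend fitted by limma, in a one-sided test of the upper tail adjusted over all 22206 probe sets. At an adjusted p under 0.05, 28 probe sets (0.126%) had a spread above the trend, 13 of them named (0.0666% of named genes) and 15 unnamed here. A total of 1061 probe sets had an unadjusted p under 0.05. With 5 mice the test finds large spreads only: on simulated data it recovered 0, 15, 35 and 47 of 50 probe sets whose SD was 2, 3, 5 and 8 times the trend.

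**Figure D2:**
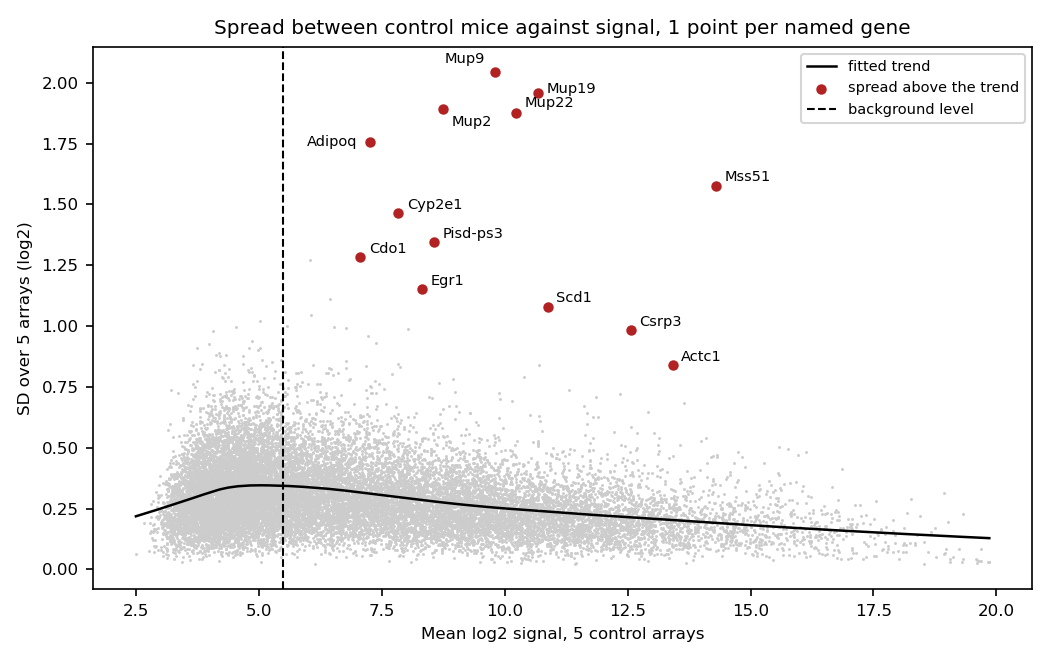
SD over the 5 control arrays (log2) against mean log2 signal, 1 point per named gene; the black line is the fitted trend, the dashed line the background level and red points the 13 named genes whose spread lay above the trend. The trend falls toward bright signals, and the 4 Mup genes, Adipoq and Mss51 stand farthest above it.

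The largest named spreads were those of Mup genes, which encode the major urinary proteins, pheromone carriers made mainly by the male liver. Mup19 read 7.89, 13.30, 11.39, 10.33 and 10.50 in replicates 1 to 5, a range of 42.5-fold (adjusted p = 2.47e-05). Mup9 read 7.35, 12.43, 11.04, 8.29 and 9.86 (adjusted p = 2.47e-05), Mup22 7.64, 12.86, 10.70, 9.79 and 10.16 (adjusted p = 4.25e-05), and Mup2 6.42, 11.69, 8.33, 8.53 and 8.76 (adjusted p = 0.000109). All 4 were highest in replicate 2 and lowest in replicate 1, and the other mice lay in between. These genes are near-identical copies, and their probe sets may share RNA, so they are not 4 separate observations. The other Mup genes with a symbol here, named after their values were seen, were close to background. Their means were 4.85 (Mup3), 5.17 (Mup5), 4.19 (Mup6), 5.42 (Mup20) and 4.60 (Mup21). Of the 13 measured liver genes 3 were above the background level, and Alb (albumin) read 5.86, 5.28, 6.38, 6.31 and 6.05, lowest in replicate 2. In this list 5 members were lowest in replicate 2 and 1, Cyp2e1, was highest in it, beside 19.7% and 20.2% of all named genes. Cyp2e1 was lowest in replicate 1, like the Mup genes.

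A further 4 called genes, all known from fat tissue, had the same mice at their extremes. Adipoq, the fat cell hormone adiponectin, read 5.39, 10.02, 6.29, 7.67 and 6.88, a range of 24.8-fold (adjusted p = 0.000863), and was below background in replicate 1. Scd1, the stearoyl-CoA desaturase, read 9.70, 12.63, 10.73, 10.88 and 10.44 (adjusted p = 0.00939). Cyp2e1 read 6.50, 10.18, 7.19, 8.29 and 7.01 (adjusted p = 0.00427), and Cdo1, the cysteine dioxygenase of liver and fat, 5.32, 8.89, 6.80, 7.41 and 6.88 (adjusted p = 0.0286). Replicate 2 was highest and replicate 1 lowest in each of the 4, and replicate 4 was second. Retn, the fat cell hormone resistin, with 4.47, 7.82, 5.29, 6.58 and 6.03, held the order of Adipoq and lay just outside the threshold (adjusted p = 0.0556).

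Over the 16 measured adipocyte genes, the mean deviation from each gene's own mean was -0.46, 0.68, -0.18, 0.11 and -0.15 in replicates 1 to 5. Of the 16, 9 were highest in replicate 2 and 8 were lowest in replicate 1, beside 20.2% and 18.9% of all named genes. Of the list 10 (62.5%) lay above the background level, beside 58.9% of all named genes. Of the defining markers, Adipoq (7.25) and Plin4 (12.11) lay above the level on average, and Plin1 (perilipin, 4.83) and Lep (leptin, 4.65) below it. Plin1 read 3.82, 6.10, 4.98, 4.72 and 4.54, above the level in replicate 2 alone. Lep read 4.37, 4.75, 4.45, 5.00 and 4.67, below the level in every mouse and highest in replicate 4. Plin4, the brightest of these markers, ran otherwise, with 11.99, 11.70, 12.13, 12.58 and 12.15. It was lowest in replicate 2 and highest in replicate 4. The tendon list deviated in the same mice, by -0.30 in replicate 1 and 0.31 in replicate 2. The part of fat or tendon tissue in the sample in these values was not tested.

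**Figure D3:**
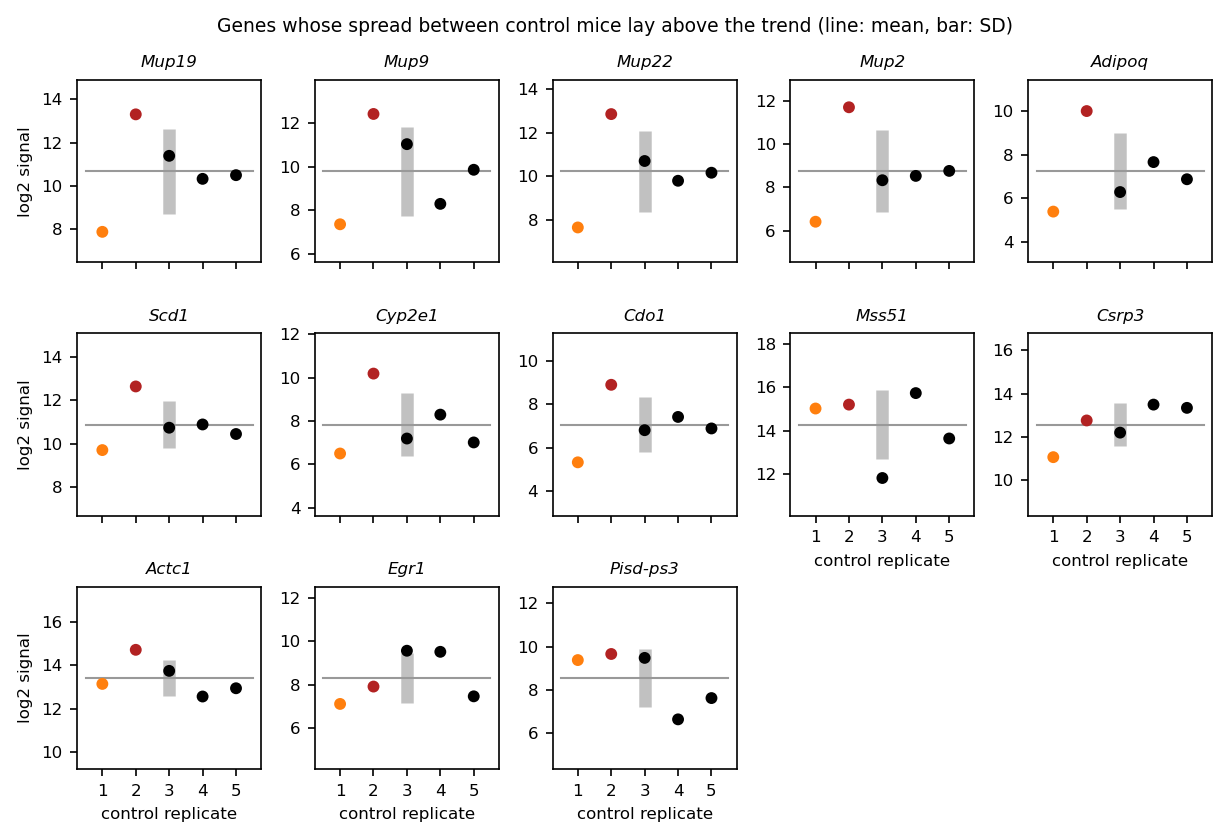
Log2 signal in each of the 5 control mice for the 13 named genes whose spread lay above the trend; each panel spans the same log2 range around its mean (grey line), and the grey bar is the SD. Replicate 1 (orange) is lowest and replicate 2 (red) highest in the 4 Mup genes, Adipoq, Scd1, Cyp2e1 and Cdo1. Replicate 1 is also lowest in Csrp3 and Egr1 and replicate 2 highest in Actc1 and Pisd-ps3, while Mss51 is highest in replicate 4 and lowest in replicate 3.

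The other named genes followed other patterns. Mss51, a regulator of metabolism restricted to skeletal muscle, was bright and uneven: it read 15.03, 15.21, 11.83, 15.74 and 13.65 (adjusted p = 2.47e-05), lowest in replicate 3. Csrp3, the muscle LIM protein of slow and stretched fibres, read 11.07, 12.76, 12.20, 13.49 and 13.34 (adjusted p = 0.00902), lowest in replicate 1. Actc1 read 13.14, 14.71, 13.74, 12.56 and 12.94 (adjusted p = 0.0255), highest in replicate 2. Egr1, an immediate-early transcription factor, read 7.12, 7.92, 9.57, 9.52 and 7.47 (adjusted p = 0.0286), so that replicates 3 and 4 stood apart from the rest. The pseudogene Pisd-ps3 read 9.38, 9.66, 9.48, 6.65 and 7.63 (adjusted p = 0.00536), lowest in replicate 4.

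Of the 15 unnamed probe sets, 6 were highest in replicate 2 and lowest in replicate 1, like the Mup genes. Among them, TC0400002768.mm.2, TC0400002769.mm.2, TC0400004208.mm.2, TC0400004211.mm.2 and TC0400004212.mm.2 are numbered close to the called Mup probe sets. Another 6 were highest in replicate 5 and lowest in replicate 2. Of these, TC0900000002.mm.2, TC0900000004.mm.2, TC0900000005.mm.2 and TC0900000006.mm.2 are numbered close together. Whether such neighbours measure the same RNA was not tested, so the calls may not be separate observations. The widest spread on the array was that of 1 unnamed probe set, TC1700001227.mm.2, with 8.69, 13.83, 6.39, 5.01 and 6.57, a range of 452-fold. Replicate 2 weighed heavily in these calls. Without it 8 probe sets were called in place of 28, of which 5 were named (Mup19, Mup9, Mup22, Mss51 and Csrp3). The calls for Mup2, Adipoq, Scd1, Cyp2e1, Cdo1, Actc1, Egr1 and Pisd-ps3 were lost, and without replicate 1 those for Csrp3, Egr1 and Cdo1. Egr1 was also lost without replicate 3 or without replicate 4, and without replicate 4 so were Actc1 and Pisd-ps3.

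None of the 19 measured genes of the circadian clock passed the test, and their values are given as a description. The clock is a loop in which Arntl (BMAL1) and Clock switch on genes through the E-box CACGTG. Among these are the Per and Cry genes and Ciart, whose proteins hold Arntl and Clock in check, and Dbp, an activator that carries the rhythm to other genes. Arntl read 10.99, 9.99, 10.74, 9.19 and 11.03 in replicates 1 to 5 (adjusted p = 0.197). Ciart read 6.45, 7.14, 5.56, 7.87 and 5.61 (adjusted p = 0.293), Dbp 14.90, 14.94, 14.76, 15.42 and 14.13 (adjusted p = 0.66) and Per1 7.91, 7.19, 7.40, 8.59 and 6.64 (adjusted p = 0.713). Replicate 4 had the lowest Arntl and the highest Ciart, Dbp and Per1, and replicate 5 the highest Arntl and the lowest Dbp and Per1. Other members did not share this order. Clock read 13.43, 12.91, 12.59, 12.98 and 13.17, lowest in replicate 3. Cry1 read 8.06, 8.06, 7.92, 8.56 and 8.63, highest in replicate 5, and Per2 read 6.81, 7.30, 6.83, 7.02 and 5.87, highest in replicate 2; both were named after their values were seen. Of the 19 clock genes, 7 were highest in replicate 4 and 7 lowest in replicate 5, beside 16.9% and 19.8% of all named genes. An unadjusted p under 0.05 in the spread test was found for 4 of them, beside 863 of 19505 over all named genes. The list was chosen with earlier results of these data known and its members are not separate observations, so these counts are no test of it. The hour of dissection is not given in the sources used here.

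The promoters of Ciart, which had the largest SD of the clock list, and of Per1 are printed to show the E-box. CACGTG, which reads the same on both strands and is marked by capitals, was found in 7.15% of all promoters of this length. It was found in 9.26% of named genes with a promoter in the table and in 11.5% of those above the background level. Of the clock genes that matched, 6 of 17 (35.3%) held it. The share was not particular to them: 4 of 12 (33.3%) genes of the glucocorticoid list, which also holds Per1, had it. The Ciart promoter (chr3:95882179-95882478, minus strand) holds 3 matches and the Per1 promoter (chr11:69098699-69098998, plus strand, the first listed of 2) holds 1. A match is not a site shown to be bound.
Ciart: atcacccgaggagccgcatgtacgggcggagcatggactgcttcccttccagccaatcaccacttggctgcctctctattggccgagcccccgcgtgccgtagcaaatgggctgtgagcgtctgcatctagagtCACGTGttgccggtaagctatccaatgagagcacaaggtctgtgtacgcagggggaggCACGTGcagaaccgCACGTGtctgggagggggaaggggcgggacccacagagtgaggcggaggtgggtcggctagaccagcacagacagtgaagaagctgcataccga
Per1: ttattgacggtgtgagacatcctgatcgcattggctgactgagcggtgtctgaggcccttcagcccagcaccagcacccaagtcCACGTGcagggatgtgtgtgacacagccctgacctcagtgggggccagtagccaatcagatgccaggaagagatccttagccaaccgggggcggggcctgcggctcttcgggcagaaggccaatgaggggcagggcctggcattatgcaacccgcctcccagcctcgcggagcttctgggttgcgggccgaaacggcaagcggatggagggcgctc

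**Figure D4:**
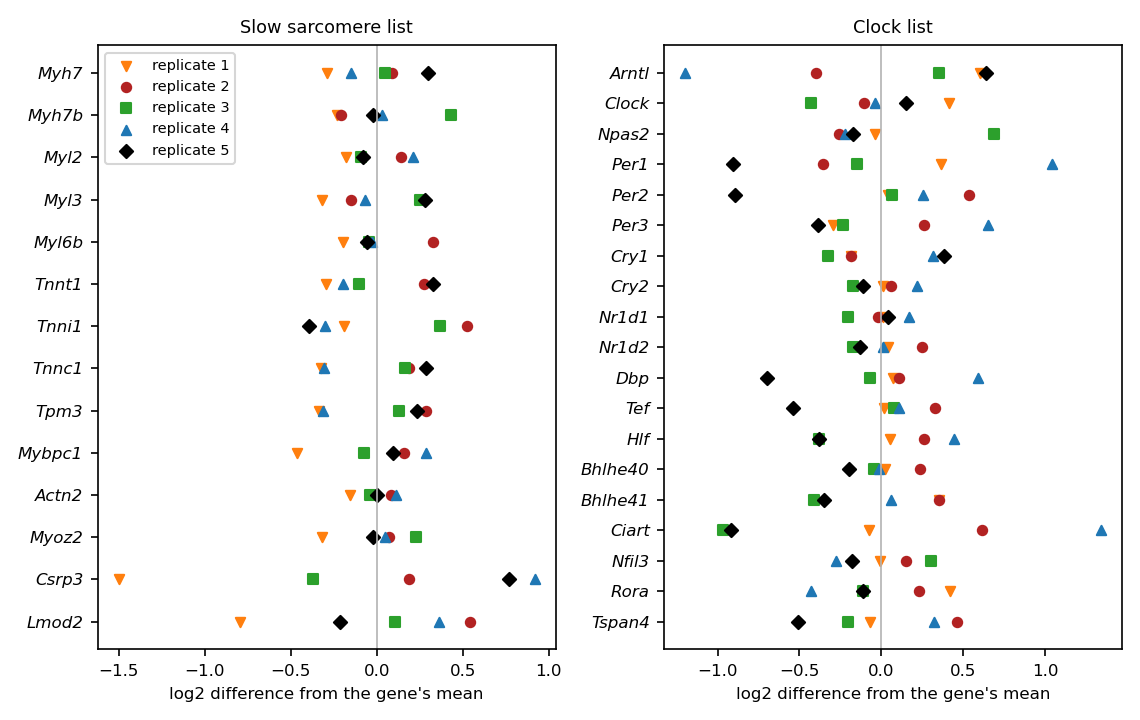
Difference of each mouse from the gene's mean (log2) for the 14 slow sarcomere genes (left) and the 19 clock genes (right); symbols and colours mark the 5 control replicates. Replicate 1 is the lowest point in 13 of 14 slow genes. In the clock list replicate 4 is lowest for Arntl and highest for Per1, Dbp and Ciart, while Clock is lowest in replicate 3 and Cry1 highest in replicate 5.

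In the lists of stress-responsive genes Egr1 alone passed the test, and the lists are described without one. Genes known to answer to glucocorticoids deviated on average by 0.15, 0.08, -0.26, 0.32 and -0.29 in replicates 1 to 5, with 7 of 15 members highest in replicate 4 (16.9% of all named genes were). An unadjusted p under 0.05 in the spread test was found for 7 of the 15, beside 863 of 19505 over all named genes, and an adjusted one for 0. The list was chosen with earlier results of these data known and its members are not separate observations, so these counts are no test of it. Arrdc2, an arrestin-related protein, read 9.55, 9.07, 8.17, 9.80 and 8.09, and Tsc22d3 (GILZ) 13.36, 13.27, 12.95, 13.58 and 12.61. Per1 belongs to this list and to the clock list. Immediate-early genes deviated by -0.31, 0.02, 0.27, 0.33 and -0.31, with Zfp36, which destabilises cytokine mRNA, at 6.74, 7.13, 7.02, 7.81 and 5.14 and Dusp1, a phosphatase of MAP kinases, at 14.46, 14.97, 15.06, 15.18 and 14.03. Fos itself stayed close to background, at 5.59 ± 0.412. The macrophage list deviated by -0.43 in replicate 5, where 10 of 15 members were lowest (19.8% of all named genes were), and 0 of its members were called.

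In the slow sarcomere and fatty acid lists replicate 1 had the lowest mean, and in the respiratory chain replicate 5 lay low with it. The slow sarcomere list deviated by -0.40 in replicate 1 and by 0.04 to 0.18 in the others, and 13 of 14 members were lowest in it (18.9% of all named genes were). Tnni1 was the exception. Without Csrp3 the deviation was -0.32. The fatty acid list deviated by -0.25 in replicate 1 and by 0.03 to 0.08 in the others, with 17 of 25 members lowest in it. Cd36, a fatty acid transporter, read 14.65, 15.16, 15.36, 15.32 and 15.35, and Lpl (lipoprotein lipase) 14.60, 15.54, 15.31, 15.24 and 15.20. The TCA list deviated by -0.14 in replicate 1 and by 0.16 in replicate 2, where 19 of 26 members were highest (20.2% of all named genes were). Of all named genes 18.9% and 19.8% were lowest in replicates 1 and 5. In complexes III to V replicates 1 and 5 both deviated by -0.10, with 18 and 12 of 39 members lowest. In complex I they deviated by -0.14 and -0.08, with 13 and 11 of 36 members lowest. The list headed oxygen storage, made of Mb, Cygb, Hif1a, Egln1 and Vegfa, deviated by -0.11 in replicate 1 and in replicate 4. Mb, the oxygen store itself, was not low in replicate 1, at 19.61 beside a mean of 19.60. Cygb was, at 9.37 beside a mean of 9.78.

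The fast sarcomere and glycogen lists deviated slightly upward in replicate 1. The fast sarcomere list deviated by 0.06 and the glycogen list by 0.11 in it. The fast list divided, with 6 of 14 members highest in replicate 1 and 3 lowest, beside 20.9% and 18.9% of all named genes. Mybpc2 and Actn3 (19.34, 19.02, 18.83, 18.90 and 19.03) were highest in replicate 1, and Myh2 was lowest. Glycolysis deviated by 0.03 in replicate 1 and by 0.08 in replicate 2, with 4 and 10 of 22 members highest. Of all named genes 20.9% and 20.2% were highest in these 2 mice, so the count in replicate 1 was near that share. Genes of muscle mass deviated upward in replicate 1 by 0.30, with 12 of 20 members highest, beside 20.9% of all named genes. Among the 12 were Mstn (13.64, 13.05, 12.58, 12.81 and 12.92), Asb2 (16.31, 15.99, 15.78, 15.39 and 15.59) and Igf1 (13.68, 13.57, 13.33, 12.53 and 12.61). Prkag3, the AMP kinase subunit of glycolytic fibres, read 10.92, 9.38, 9.85, 9.42 and 9.82, highest in replicate 1. Of single genes in these lists only Csrp3 and Mss51 passed the test, and no test was made over lists.

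**Figure D5:**
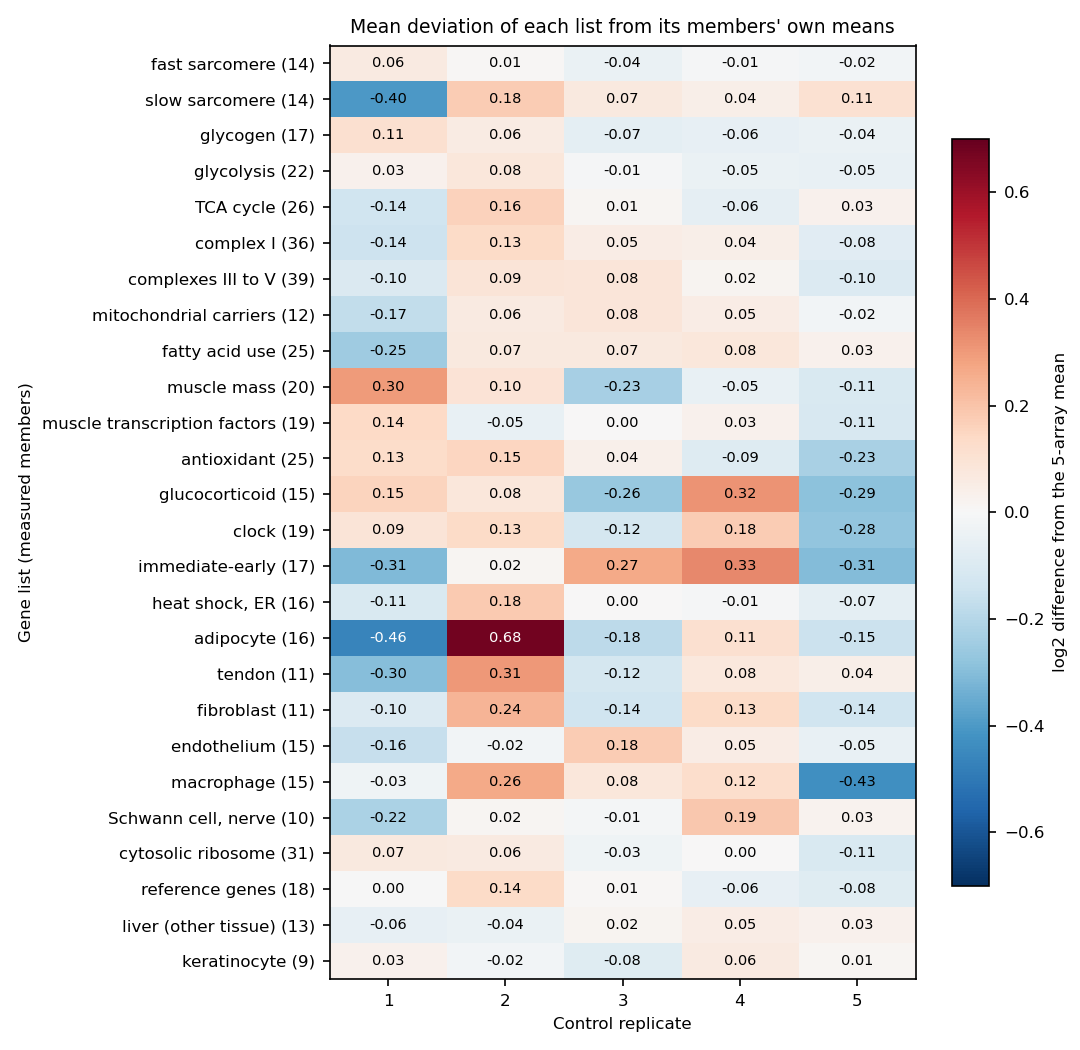
Mean log2 deviation of the members of 26 gene lists from their own 5-array means in each control replicate, with the number of measured members in brackets. The adipocyte list in replicate 2 (0.68) and in replicate 1 (-0.46), the macrophage list in replicate 5 (-0.43) and the slow sarcomere list in replicate 1 (-0.40) show the deepest colours, and the keratinocyte list stays between -0.08 and 0.06.

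The least variable genes with a mean over 10 were of several kinds. The smallest SD, 0.0219, was that of Stim1, the calcium sensor of the sarcoplasmic reticulum, with 11.42, 11.43, 11.43, 11.45 and 11.39. It was followed by Pvalb and Mb at the top of the scale, and by Snx13 (a sorting nexin, 11.46 ± 0.0261), C1qbp (a mitochondrial matrix protein, 13.69 ± 0.027), Sppl3 (an intramembrane protease, 10.34 ± 0.0277) and Mbd3 (a chromatin protein, 10.04 ± 0.0297). Of genes commonly used as references, Gapdh had 18.94 ± 0.0639, Actb 16.54 ± 0.11, Hprt 11.05 ± 0.13 and B2m 15.89 ± 0.23. The median SD of the 18 measured reference genes was 0.176. Across all named genes, the mouse at 1 end lay apart from the next by more than 0.71 of the whole range in 5.17% of genes.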

How the data were processed

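RNA of whole gastrocnemius was measured in 5 ctrl mice; the groups came from the labels. The authors deposited log2 signals per probe set, computed by SST-RMA in Affymetrix Expression Console 1.4; whether the knockout arrays were normalised together with these is not given in the sources used here. The series' other arrays were not analysed here. Signals have no detection call, and precision is limited by how few arrays there are. Probe sets were named through the platform annotation with RefSeq identifiers (1 symbol each for 19572 of 22206), and the brightest probe set stood for a gene. No column lacked a sample.

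In limma 3.58.1 (R 4.3.3) an intercept was fitted with a robust, trended prior, and each variance was tested against the trend (F test, upper tail, Benjamini-Hochberg adjustment, threshold 0.05). The test was tried on simulated data. Lists are described by counts and medians beside all genes. Alternatives were other normalizations, priors, floors and gene summaries and leaving out each replicate. Python 3.11 was used for the rest.

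The genes that could be named were the 4 markers and Txnrd2, the 40 brightest genes, the called genes, the 15 least variable genes above a signal of 10, all members of the fibre, energy, sex and regulator lists, and of each other list its opening 4 members, its 2 brightest and its 3 most variable; the text names some of these and gives the rest by counts. The lists and members were chosen with earlier results of these data known.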

Additional observations from a re-analysis of the deposited data

Results flagged for a closer look

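Of 199 of the genes named and the 49 lists described, 7 genes and 2 lists had 1 mouse farther from the rest than Dixon's limit for 5 samples, 0.71 of the whole range. Chance alone passes this limit in about 1 of 20 groups, so a count of this size is not unusual. For the slow sarcomere list the gap of replicate 1 below the next mouse took 0.766 of the range of list means, and for the fatty acid list 0.852. The genes were Cd36 (0.718, replicate 1 low), Clcn1 (0.943), Ldha (0.875), Myh6 (0.724, replicate 3 low), Pygb (0.905), Snx13 (0.833, replicate 5 low) and Tnni2 (0.750). Of these, Snx13 and Tnni2 had SDs of 0.0261 and 0.052, so their gaps are small in size.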

How the results depend on the processing

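The count of 28 probe sets with spread above the trend became 1 when the prior had no trend with signal and, leaving out 1 replicate at a time, lay between 8 (without replicate 2) and 28; in the other alternatives it lay between 20 and 32. All 13 named genes kept their call under median centring, quantile normalization, cyclic loess, array weights and a test of probe sets above the background level only; with a prior that is not robust, Egr1 and Cdo1 lost it, and with no trend of the prior 0 of the 13 kept it. Of the 40 genes of largest SD, 33 remained when ordered by range and 15 when ordered by the median absolute deviation, which gives little weight to 1 distant mouse, and 6 of the 13 called genes were among those 40. Genes above the background level numbered between 10112 and 11525 across alternatives, beside 11480. Among the 100 brightest, 98 to 100 stayed. The median SD of 0.274 lay between 0.263 and 0.276. Of list medians, that of the immediate-early list moved from 7.48 to 6.78 when all probe sets of a gene were averaged. Not every list deviation by mouse was put to alternatives. Those that were kept their sign in all 55 alternatives, which were chosen after seeing the data. No paired analysis was possible because a single group of mice was described and nothing was compared between groups. With 5 mice, an SD has wide error, and near the background level a signal carries little information on the transcript.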
